A study of Mus musculus with 6 samples.

Results

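Genes of autophagy and the lysosome were examined in a mouse glioblastoma stem cell line in which the enzyme gene Ggct was knocked down. The members are all non-control array probes whose transcript maps to a symbol of these families: Atg plus a digit, Atp6v plus a digit, Cts plus 1 letter, Lamp1, Lamp2, Ulk1, Ulk2, Becn1, and symbols that start with Gabarap or Map1lc3. The rule took 93 of 56605 probes, which stand for 69 of 22911 named genes. The line was started as neurospheres from glioblastomas that a Sleeping Beauty (SB) transposon had induced in mice, and was kept in serum-free Neurobasal medium with B27, N2, EGF and bFGF. The 3 control samples carried a lentiviral non-target hairpin and the 3 knockdown samples a lentiviral hairpin against Ggct. The sample titles name the same hairpin for every knockdown sample, so what that hairpin does beyond lowering Ggct cannot be told apart from the knockdown. All samples come from 1 cell line, and nothing in the labels beyond the dates in the titles says whether the samples of a group were separate cultures, and the p-values therefore reflect only how far these samples spread, which may be in part technical.

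Autophagy encloses cytoplasm in a double membrane and delivers it to the lysosome. The Ulk kinase complex starts the process, the Becn1 and Atg14 complex marks the growing membrane with a phosphoinositide, Atg9 and Atg2 proteins supply lipid, and a ubiquitin-like conjugation system attaches proteins of the Atg8 family (LC3 and Gabarap) to the membrane. In the lysosome, a proton pump built from Atp6v subunits acidifies the lumen, where cathepsins digest protein, and Lamp proteins line the membrane. Many of these genes are known targets of the transcription factor TFEB, which binds the CLEAR element, a short palindrome around the letters CACGTG, and which is held in check by the nutrient-sensing kinase complex mTORC1.

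Start sites of some members are shown first, to show the letters of the CLEAR element where they occur; most member windows did not hold them. RefSeq promoter windows (mouse build GRCm38.p6, from 250 bases before to 50 after a start) were matched by symbol for 55 of the 69 member genes, in 61 windows. The letters CACGTG stood in 13 of the 61 windows (21.3%), against 7.15% of all 32851 windows. The longer form TCACGTG, which contains the first and was searched on both strands, stood in 10 of 61 (16.4%), against 3.77% of all windows. The full CLEAR palindrome of 10 letters was in 0 of the 61 and in 0.33% of all windows. Of the 5 genes that passed the test below, Ctsf and 1 of the 2 windows of Ctsa held CACGTG, the windows of Gabarap and Ctsk did not hold these letters, and Atg12 had no window here. In 13 tested genes with CACGTG the median log2 fold change was 0.38, and in 29 tested genes with a window but no CACGTG it was 0.20. Of the 13, 10 lay above 0 and 6 were higher at an unadjusted p below 0.05. Of the 29, the counts were 20 and 12, and the shares of all genes were 52.3% and 14.1%. These differences were not tested, and a match of letters is a description, not a binding site. The 250 bases before one of the starts of Ctsa and before that of Ctsf, and shorter stretches before the starts of Ctsd, Lamp1, Atp6v0b, Atp6v1a and Atg3, are printed to show how the letters are placed. CACGTG is in capitals, and each sequence reads 5′ to 3′ on the strand of the gene.
Ctsa, chr2:164833523-164833772, plus strand: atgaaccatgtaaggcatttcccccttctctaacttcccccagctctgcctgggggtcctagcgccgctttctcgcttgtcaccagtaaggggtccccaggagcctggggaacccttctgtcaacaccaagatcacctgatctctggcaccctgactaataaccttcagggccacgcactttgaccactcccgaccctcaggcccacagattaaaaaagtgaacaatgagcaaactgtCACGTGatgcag
Ctsf, chr19:4854915-4855164, plus strand: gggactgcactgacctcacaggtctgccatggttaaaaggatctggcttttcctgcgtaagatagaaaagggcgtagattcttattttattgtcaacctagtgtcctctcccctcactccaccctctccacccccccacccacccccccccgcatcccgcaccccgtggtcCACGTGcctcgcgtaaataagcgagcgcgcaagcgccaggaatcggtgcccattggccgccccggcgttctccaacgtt
Ctsd, chr7:142387895-142387950, minus strand: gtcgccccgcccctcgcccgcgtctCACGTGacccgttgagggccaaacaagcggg
Lamp1, chr8:13159075-13159160, plus strand: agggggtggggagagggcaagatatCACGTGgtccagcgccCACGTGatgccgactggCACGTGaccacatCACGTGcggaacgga
Atp6v0b, chr4:117887330-117887390, minus strand: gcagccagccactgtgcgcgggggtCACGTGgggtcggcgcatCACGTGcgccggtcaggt
Atp6v1a, chr16:44139360-44139415, minus strand: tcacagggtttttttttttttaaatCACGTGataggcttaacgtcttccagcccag
Atg3, chr16:45158710-45158788, plus strand: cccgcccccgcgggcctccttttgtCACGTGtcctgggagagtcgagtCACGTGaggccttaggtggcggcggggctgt
Lamp1 held 4 copies in this stretch, the first beginning 61 bases before the start, and Atp6v0b and Atg3 held 2 each. In the printed stretch of Ctsa the letters began 12 bases before that start, the 250 bases before its other start held no copy, and in Ctsf 79 bases before it. The copy in Ctsf is not part of the 7-letter form.

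Of the arrays, 54.5% to 56.8% of probes were well above background, and 0 probes were saturated. Ggct fell to 12.7% of control (log2 fold change -2.97 ± 0.20, standard error; adjusted p = 0.00314 in limma), with all 3 knockdown arrays below all 3 control arrays. Knockdown replicate 1 stood apart: its score on principal component 1 was 46.6, and those of knockdown replicates 2 and 3 were 9.13 and 15.4. Of 12 neural and glioma stem cell markers, 8 were well above background on all 6 arrays, among them Nes, Sox2 and Olig1, and Olig2 and Pax6 were on none. Of the 9 tested, 0 passed in limma, and their median was -0.264, beside 0.016 for all genes. At an unadjusted p below 0.05 Prom1 was higher (1.03) and Nes (-0.64) and Sox2 (-0.34) were lower. At that level 14.1% of all genes were higher and 10.7% lower. Prom1 was dim (control mean -4.01), with knockdown array 1 at -2.32 and arrays 2 and 3 at -3.13 and -3.48. The summed log2 signal of the 12, carried by Vim, ran from 7.81 to 8.02 in control and from 7.73 to 8.01 in knockdown arrays. Macrophages and microglia are rich in cathepsins, so their markers were read too. Of 15, 9 were above background on 0 arrays, among them Aif1, Cx3cr1, Ptprc, Trem2 and Spi1, and 5 on all arrays, Itgam, Csf1r, Fcer1g, C1qb and Tmem119. The summed log2 signal of the 15, most of it from Itgam, ran from 3.45 to 4.12 in control and from 3.55 to 3.83 in knockdown arrays. Tmem119 of that list rose (1.17 ± 0.20, standard error; adjusted p = 0.0207 in limma), and its part in the results below was not tested. Of 8 endothelial markers, Flt1 fell to 49.9% of control (adjusted p = 0.0187 in limma, 0.0527 with the pairs blocked), Pecam1 (-0.06) and Cdh5 (0.15) were measured on all arrays and did not pass, and Cldn5, Kdr and Tie1 were above background on 0 arrays. The summed log2 signal of the 8, nearly all of it from Flt1, ran from 2.81 to 3.12 in control and from 1.76 to 2.19 in knockdown arrays, and its part in the results was not tested.

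Most members were expressed, and those that passed the test were all higher in the knockdown. Of the 69 genes, 54 had a probe well above background on at least 3 arrays and were tested, each through its brightest probe, and 53 of these were above background on all 6. Passing means an adjusted p below 0.05 in limma over all 14151 genes. 5 members rose and 0 fell: the cathepsin genes Ctsf, Ctsa and Ctsk, the Atg8 family gene Gabarap and the conjugation gene Atg12. That is 9.26% of the members tested, beside 4.57% of all genes called higher. Called lower were 2.84% of all genes. At an unadjusted p below 0.05, 20 members were higher and 3 lower, or 37.0% and 5.56% of them, beside 14.1% and 10.7% of all genes. All 3 knockdown arrays lay above all 3 control arrays in 26 members (48.1%, against 17.8% of all genes) and below them in 4 (7.41%, against 14.6%). The median log2 fold change of the 54 was 0.202, and that of all genes 0.016. The members' median was 0.299, 0.148 and 0.186 in pairs 1, 2 and 3, a pair being the control and knockdown array that share a date. The median of all genes was 0.093, 0.003 and -0.025 in these pairs. 1 member, Ctsf, changed at least 2-fold. In bulk RNA, fewer cells that express a gene and less RNA per cell cannot be told apart.

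The 5 calls rest on few arrays. With the pair as a replicate block, 1 member passed, Ctsf (limma adjusted p = 0.0299), beside 2.78% of all genes called higher, and Gabarap, Ctsa, Atg12 and Ctsk had adjusted p-values of 0.0607, 0.0706, 0.0923 and 0.0991. No member passed without control replicate 1, control replicate 2 or knockdown replicate 3, in fits that called 14, 42 and 21 of all genes. Without knockdown replicate 2 or control replicate 3, Ctsf alone passed, in fits that called 626 and 424 of all 14151 genes. Without knockdown replicate 1, in a fit that called 840, Ctsf, Ctsa and Gabarap rose and Ctsh, an aminopeptidase, fell (limma adjusted p = 0.0467). The log2 fold changes moved little meanwhile. With single arrays left out, Gabarap ran from 0.57 to 0.65, Ctsa from 0.56 to 0.69, Ctsk from 0.54 to 0.69, Atg12 from 0.51 to 0.68 and Ctsf from 1.22 to 1.58.

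**Figure D1:**
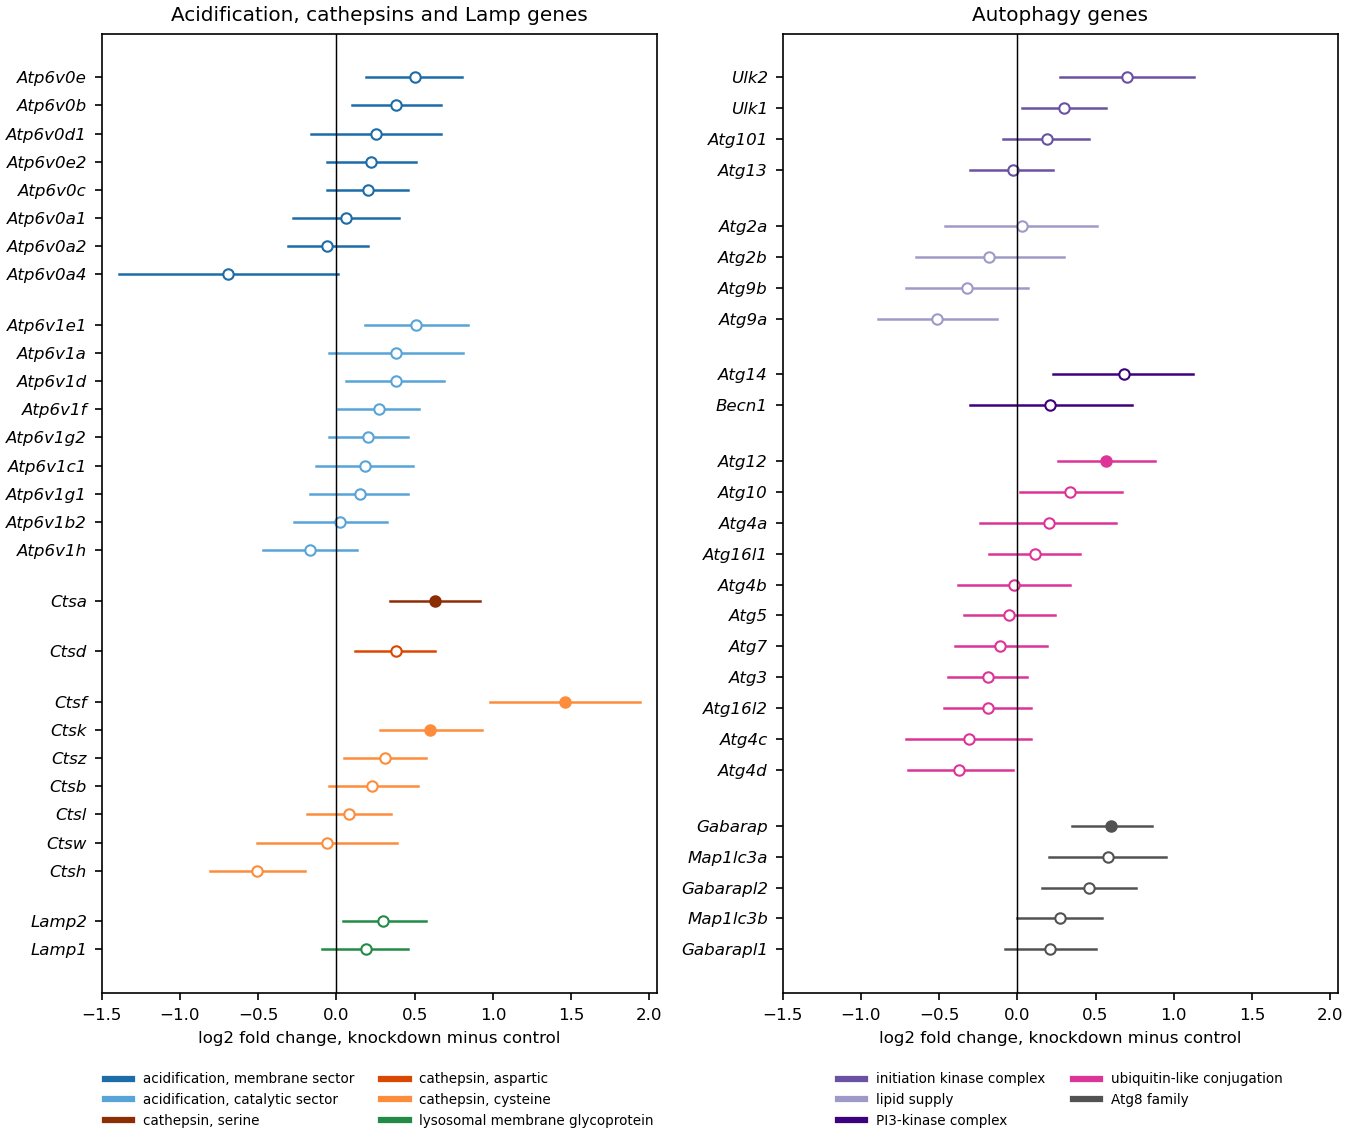
Log2 fold change (knockdown minus control, points) with its 95% interval (lines) for the 54 member genes tested, grouped by role; filled points passed at an adjusted p below 0.05. Filled points are Ctsa, Ctsf, Ctsk, Atg12 and Gabarap, and 38 of the 54 points lie above 0, beside 52.3% of all genes tested.

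**Figure D2:**
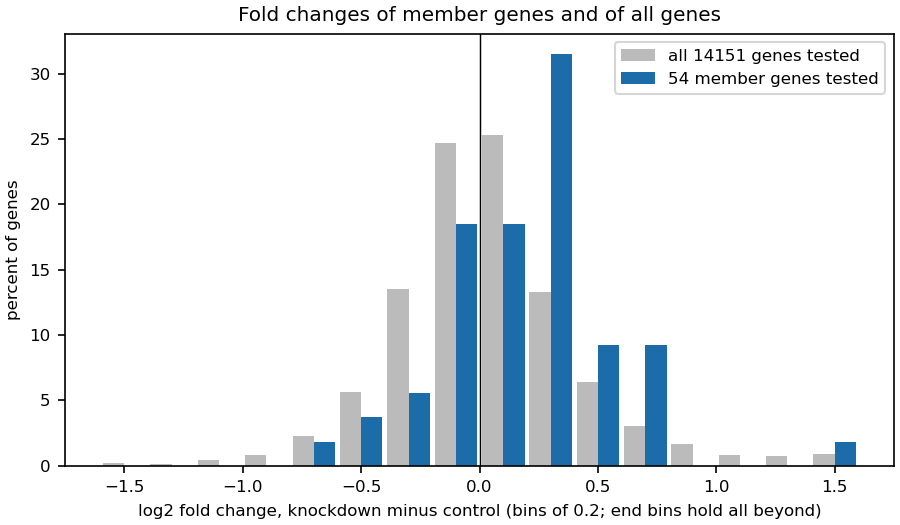
Percent of genes (vertical axis) in bins of log2 fold change for the 54 members and for all 14151 genes tested. The bin from 0.2 to 0.4, centred on 0.3, holds 31.5% of the members and 13.3% of all genes.

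Cathepsins are the proteases of the lysosome, and 3 of the 9 measured ones rose, where 4.57% of all genes were called higher. Ctsf, a cysteine cathepsin, had the largest fold of the 9 as reported, though not with normexp, and its control signal lay at the edge of detection. Its normalised log2 signal was -5.01, -5.22 and -4.99 in control arrays 1 to 3 and -3.14, -3.83 and -3.86 in knockdown arrays 1 to 3. The groups did not overlap and were 1.13 apart, with knockdown array 1 the highest. The rise was 2.75-fold (log2 fold change 1.46 ± 0.21, standard error; adjusted p = 0.0137 in limma). The signal of Ctsf was dim: the lowest signals well above background lay between -5.62 and -5.05 on the same scale. With normexp, a background correction whose added offset shrinks the folds of dim probes by construction, its log2 fold change was 0.46 and it did not pass (limma adjusted p = 0.106).

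Ctsa encodes a serine carboxypeptidase that also protects other lysosomal enzymes from degradation. Its signal was 5.95, 5.94 and 5.74 in control and 6.56, 6.38 and 6.57 in knockdown arrays, far above background and without overlap. It rose 1.55-fold (log2 fold change 0.63 ± 0.12, standard error; adjusted p = 0.0287 in limma). Ctsk, a collagen-degrading protease best known from osteoclasts, was at -2.91, -2.63 and -2.86 in control and -2.14, -2.37 and -2.06 in knockdown arrays. Its groups were 0.25 apart, and it rose 1.52-fold (0.60 ± 0.14, standard error; adjusted p = 0.0442 in limma). Ctsk did not pass with quantile normalization (limma adjusted p = 0.059) or with normexp (0.215), where its log2 fold change was 0.30.

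The other 6 measured cathepsins did not pass. Ctsd, the main aspartic protease of the lysosome, had little spread, at 5.27, 5.22 and 5.18 in control and 5.66, 5.61 and 5.53 in knockdown arrays. Its groups did not overlap, and its log2 fold change was 0.38 with a 95% interval from 0.12 to 0.63 (limma adjusted p = 0.0822). Ctsz, a carboxypeptidase, was at 0.31 (limma adjusted p = 0.134) and Ctsb at 0.23 (0.291). Ctsl, a broad endopeptidase, was at 0.08 with an interval from -0.19 to 0.35, and Ctsw, known from cytotoxic lymphocytes, at -0.06. Ctsh was the only cathepsin with all 3 knockdown arrays lower, at -0.73, -0.90 and -1.03 against -0.24, -0.47 and -0.41 in control. Its log2 fold change was -0.51 ± 0.13 (standard error; adjusted p = 0.0603 in limma), and a second probe of Ctsh was at -0.34.

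A further 9 cathepsin genes were above background on 0 of the 6 arrays and have no measured change. They were Ctsc, Ctsg and Ctss, known from immune cells, the aspartic protease gene Ctse, Ctso, and Ctsj, Ctsm, Ctsq and Ctsr, which belong to the placental group of rodents. The absence of a signal for Ctsc and Ctss was measured with 1 probe each.

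**Figure D3:**
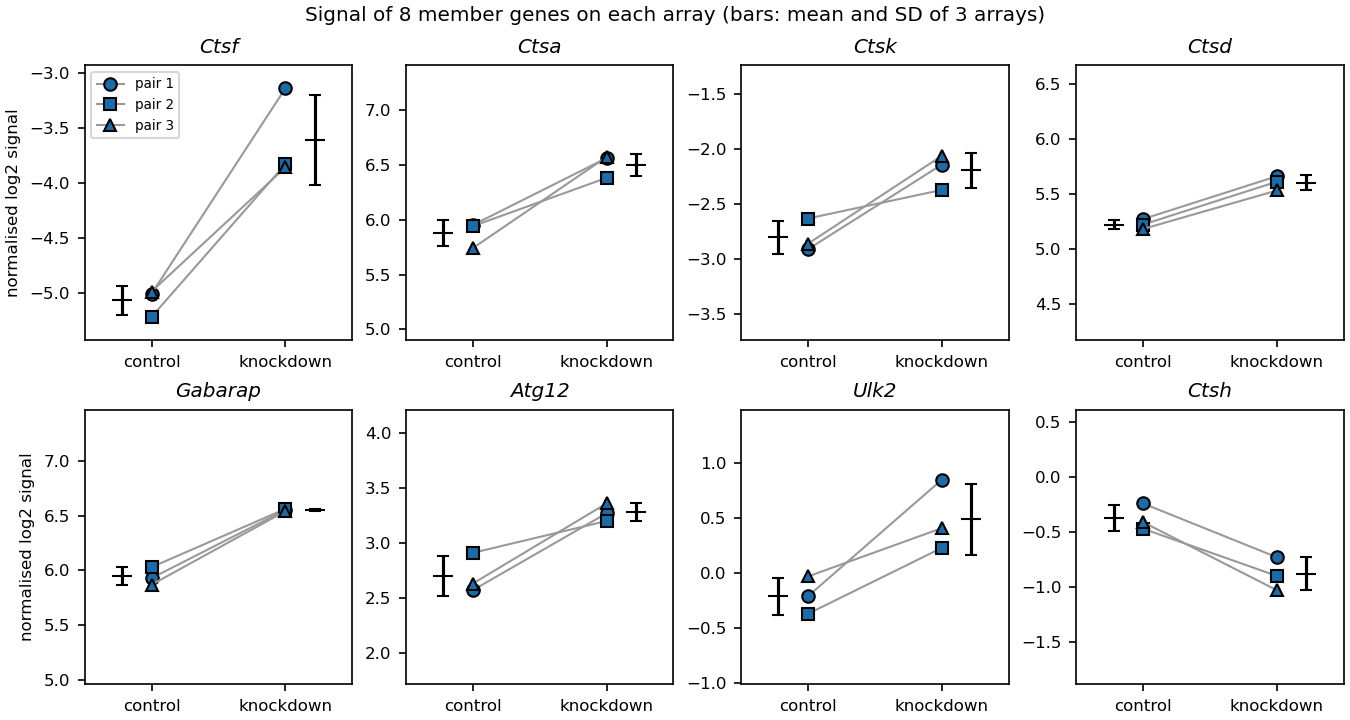
Normalised log2 signal of 8 members on each array, with lines joining the arrays of a pair and bars for the mean and SD of 3 arrays; every panel spans the same range of log2 units. In all 8 panels the groups do not overlap, with Ctsh lower and the other 7 higher in the knockdown. The 8 are a selection. Of the 54 members tested, 26 lay wholly higher and 4 wholly lower, beside 17.8% and 14.6% of all genes.

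The proton pump, called the V-ATPase, pairs a membrane sector (Atp6v0 genes) with a catalytic sector (Atp6v1 genes). Of its 17 measured genes, 0 passed in limma and 5 had an unadjusted p below 0.05, all higher. In 14 the value lay above 0, with a median of 0.202 and pair medians of 0.301, 0.195 and 0.063. The pair medians of all genes were 0.093, 0.003 and -0.025. In 8 of the 17 all knockdown arrays lay above all control arrays, and in 0 below, beside 17.8% and 14.6% of all genes; at an unadjusted p below 0.05, 14.1% of all genes were higher. Atp6v1e1, which encodes a stalk subunit, was at 4.26, 4.44 and 4.40 in control and 5.11, 4.73 and 4.78 in knockdown arrays. Its log2 fold change was 0.51 ± 0.14 (standard error; adjusted p = 0.0736 in limma), and it passed when the 75th percentile was taken over probes detected on every array. Atp6v0e, a small membrane subunit, was at 4.60, 4.95 and 4.66 in control and 5.21, 5.25 and 5.25 in knockdown arrays, a log2 fold change of 0.50 ± 0.13 (standard error; adjusted p = 0.0636 in limma) that passed with normexp. Atp6v0b, a subunit of the rotor ring, was at 0.38 (limma adjusted p = 0.106), Atp6v1d, of the central shaft, at 0.38 (0.135) and Atp6v1f at 0.27 (0.190).

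The core catalytic subunits showed smaller or less even differences. Atp6v1a, which binds ATP, was at 0.38 with an interval from -0.05 to 0.81, and its pairs differed by 0.83 and 0.32, with no difference after rounding in the third. Atp6v1b2 was at 0.02, with an interval from -0.27 to 0.32. Atp6v1h, a regulatory subunit, was lower in all 3 pairs, with a log2 fold change of -0.17 and overlapping groups. In the membrane sector, Atp6v0a1 (0.06) and Atp6v0a2 (-0.06), which steer the pump to different membranes, lay near 0 through their brightest probes. A dimmer probe of Atp6v0a1, annotated to another transcript, was at 0.28 without overlap (limma adjusted p = 0.360 over all probes kept). Atp6v0a4, the form known from kidney, was well above background on 2 control arrays and 1 knockdown array, so its -0.69 (limma adjusted p = 0.210) is a difference between signals at the edge of detection. Atp6v0d2, Atp6v1b1, Atp6v1c2, Atp6v1e2, Atp6v1g3 and Atp6v1fnb, the last named only as a neighbour of Atp6v1f, were above background on 0 arrays.

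Lamp1 and Lamp2 encode the most abundant glycoproteins of the lysosomal membrane, and neither passed. Lamp1 was at 6.83, 6.89 and 6.66 in control and 7.01, 7.02 and 6.91 in knockdown arrays, a log2 fold change of 0.19 (limma adjusted p = 0.378). Lamp2 through its brightest probe was at 4.67, 4.74 and 4.73 in control and 5.05, 4.91 and 5.09 in knockdown arrays, a log2 fold change of 0.30 (limma adjusted p = 0.150). Its second probe, which is annotated to another RefSeq transcript of the gene, was at 1.76, 1.86 and 2.12 in control and 3.28, 2.59 and 2.70 in knockdown arrays. That probe's log2 fold change was 0.94 ± 0.21 (standard error; adjusted p = 0.0767 in limma over all 31804 probes kept). On every array the signal of the second probe minus that of the first was larger in the knockdown, at -1.77, -2.31 and -2.39 against -2.90, -2.88 and -2.61. This 0.64 difference, picked after the values were seen, had an exact two-sided permutation p of 0.1, the smallest that 3 against 3 arrays allow. With the mean of both probes Lamp2 passed (0.62; limma adjusted p = 0.0459).

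Of the 4 genes that start autophagy, 0 passed in limma and 2, Ulk1 and Ulk2, had an unadjusted p below 0.05. Both were higher, beside 14.1% of all genes at that level. Ulk2, a kinase that acts beside Ulk1, was at -0.21, -0.37 and -0.03 in control and 0.85, 0.23 and 0.41 in knockdown arrays, with knockdown array 1 the highest. Its log2 fold change was 0.70 ± 0.18 (standard error; adjusted p = 0.0628 in limma), its second probe was at 0.87, and it passed with normexp and with the 75th percentile over probes detected on every array. Ulk1 was at 0.30 (limma adjusted p = 0.155), with the groups 0.17 apart. Their partners Atg101 and Atg13 were at 0.19 and -0.03, the latter with an interval from -0.30 to 0.23. In the phosphoinositide kinase complex, Atg14, which brings the complex to the growing membrane, was at 0.35, 0.39 and 0.60 in control and 1.53, 0.87 and 0.97 in knockdown arrays. Its log2 fold change was 0.68 ± 0.19 (standard error; adjusted p = 0.0758 in limma). Becn1, its scaffold partner, did not differ beyond its spread: its log2 fold change was 0.21, its pairs were at 0.86, 0.15 and -0.36, and the value was -0.01 without knockdown replicate 1.

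Among the 4 genes of lipid supply, 3 had values below 0 and 1 above, where 52.3% of all genes lay above 0. Atg9a encodes the scramblase carried on Atg9 vesicles and was at -1.24, -1.54 and -1.75 in control and -2.20, -2.0 and -1.86 in knockdown arrays. Its groups were 0.11 apart and its log2 fold change was -0.51 ± 0.16 (standard error; adjusted p = 0.106 in limma). Its relative Atg9b was at -0.32 with overlapping groups (limma adjusted p = 0.293). Atg2b was at -0.18 through one probe and 0.09 through another, and Atg2a at 0.03 with pairs of 0.51, 0.1 and -0.54. Of the 4, 0 passed in limma and Atg9a alone had an unadjusted p below 0.05, beside 10.7% of all genes lower at that level.

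The conjugation genes were mixed, and Atg12 alone rose among 11, where 4.57% of all genes were called higher. Atg12 is the ubiquitin-like protein that Atg7 and Atg10 join to Atg5. Its signal was 2.57, 2.91 and 2.63 in control and 3.27, 3.20 and 3.36 in knockdown arrays, without overlap. It rose 1.49-fold (log2 fold change 0.57 ± 0.13, standard error; adjusted p = 0.0453 in limma). Atg10, the enzyme that carries Atg12, was at 0.34 and 0.50 through its probes (limma adjusted p = 0.184 for the brighter one). Of its other partners, Atg5 was at -0.05 with an interval from -0.34 to 0.24, Atg7 at -0.11 from -0.40 to 0.19, and Atg16l1 at 0.11 from -0.18 to 0.40. Atg3, the enzyme that carries Atg8 proteins, was at 3.59, 3.58 and 3.68 in control and 3.39, 3.42 and 3.46 in knockdown arrays, a small difference of -0.19 (limma adjusted p = 0.321) without overlap. The Atg4 proteases, which trim and release Atg8 proteins, ran from Atg4d at -0.37 (limma adjusted p = 0.164) and Atg4c at -0.31 to Atg4b at -0.02 and Atg4a at 0.20. Atg16l2 was at -0.19.

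All 5 genes of the Atg8 family had values above 0, beside 52.3% of all genes. Gabarap rose, where 4.57% of all genes were called higher. These small proteins are joined to the membrane and hold the cargo receptors. Gabarap was at 5.93, 6.03 and 5.87 in control and 6.55, 6.56 and 6.54 in knockdown arrays. The knockdown arrays lay within 0.02 of each other and the groups were 0.51 apart. It rose 1.52-fold (log2 fold change 0.60 ± 0.11, standard error; adjusted p = 0.0238 in limma). Map1lc3a, which encodes an LC3 protein, was at 1.12, 1.1 and 0.74 in control and 1.78, 1.52 and 1.39 in knockdown arrays, a log2 fold change of 0.58 ± 0.16 (standard error; adjusted p = 0.0738 in limma). Gabarapl2 was at 0.46 through each of its probes (limma adjusted p = 0.0761 for the brighter one) and passed with normexp. Map1lc3b, the form most used as a marker of autophagosomes, was at 0.27 and 0.42 through its probes (limma adjusted p = 0.196 for the brighter one), and Gabarapl1 at 0.21 and 0.24. Probes for such close paralogs can cross-hybridise. RNA levels of these genes do not measure the flow of autophagy.

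**Figure D4:**
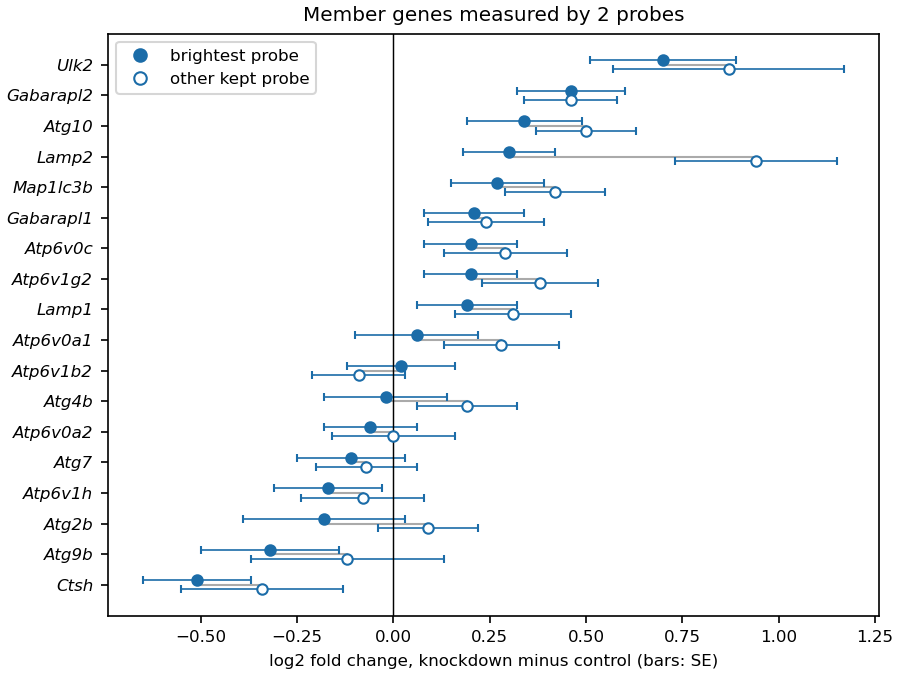
Log2 fold change (knockdown minus control) with its SE for the 18 member genes measured by 2 kept probes; filled points are the brighter probe. The probes of Lamp2 are 0.64 apart, the widest gap, and 3 genes, Atg2b, Atg4b and Atp6v1b2, have probes on both sides of 0 by more than rounding.

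Repeat probes gave a second reading of 18 members. 10 genes had both probes above 0 and 4 had both below 0 after rounding to 2 decimals, while Atg2b, Atg4b and Atp6v1b2 had probes of opposite sign and Atp6v0a2 had -0.06 and 0.00. No gene had probes more than 1 log2 unit apart. Fitted probe by probe and adjusted over all 31804 kept probes, Ctsf alone of the 72 kept member probes rose (limma adjusted p = 0.0397), beside 1.16% of all probes called higher.

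Other genes of the pathway were taken from lists of symbols that the member rule does not reach. These lists were chosen with earlier results of these data known, so their counts are a description. The calls below are to be read beside the 4.57% of all genes called higher and the 2.84% called lower. Of 37 lysosomal hydrolase and activator genes, Lipa, an acid lipase, was among those that rose (0.65 ± 0.13, standard error; adjusted p = 0.0303 in limma) and 0 fell, with a median of 0.276 beside 0.016 for all genes. Of 27 lysosomal membrane genes, the cystine exporter gene Ctns rose 2.01-fold (1.01 ± 0.16, standard error; adjusted p = 0.0174 in limma) and 0 fell (median 0.087). Ctns passed with the replicate block, and Lipa did not (limma adjusted p = 0.0692). Of 12 genes of V-ATPase accessories, Ncoa7 fell (-0.59 ± 0.11, standard error; adjusted p = 0.0248 in limma, 0.0615 with the pairs blocked) and 0 rose. Of 25 genes of lysosomal sorting, Gnptg, a subunit of the enzyme that tags lysosomal proteins, rose (0.63 ± 0.12, standard error; adjusted p = 0.0248 in limma, 0.0582 with the pairs blocked) and 0 fell.

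Of 17 selective autophagy receptor genes, 3 rose and 0 fell, again beside 4.57% and 2.84% of all genes. Calcoco1, a receptor for the endoplasmic reticulum and Golgi, was 1.99-fold higher (limma adjusted p = 0.0155), Optn 1.57-fold (0.0291) and the mitochondrial receptor gene Bnip3l 1.55-fold (0.0477), and Calcoco1 alone passed with the block. Of 26 further core autophagy genes, the SNARE gene Vamp8 (0.80 ± 0.15, SE), the omegasome gene Zfyve1 (0.71 ± 0.11, SE) and Trp53inp1 (2.01 ± 0.31, SE), whose protein binds Atg8 proteins, rose and 0 fell, and all 3 passed with the block. Of 34 genes around mTORC1 and TFEB, Rragd, a GTPase that recruits mTORC1 and TFEB to the lysosome, rose 3.40-fold (1.77 ± 0.24, standard error; adjusted p = 0.0134 in limma). The mTORC1 inhibitor genes Sesn1 and Ddit4 rose 2.30-fold each (limma adjusted p = 0.0205 and 0.0268), and Sesn1 did not pass with the block (0.0568). Of 3 measured cystatin genes, inhibitors of cysteine cathepsins, 0 passed in limma and 2 had an unadjusted p below 0.05. Both were higher, where 14.1% of all genes were at that level. All calls in these lists were lost without control replicate 1, without control replicate 2 or without knockdown replicate 3.

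**Figure D5:**
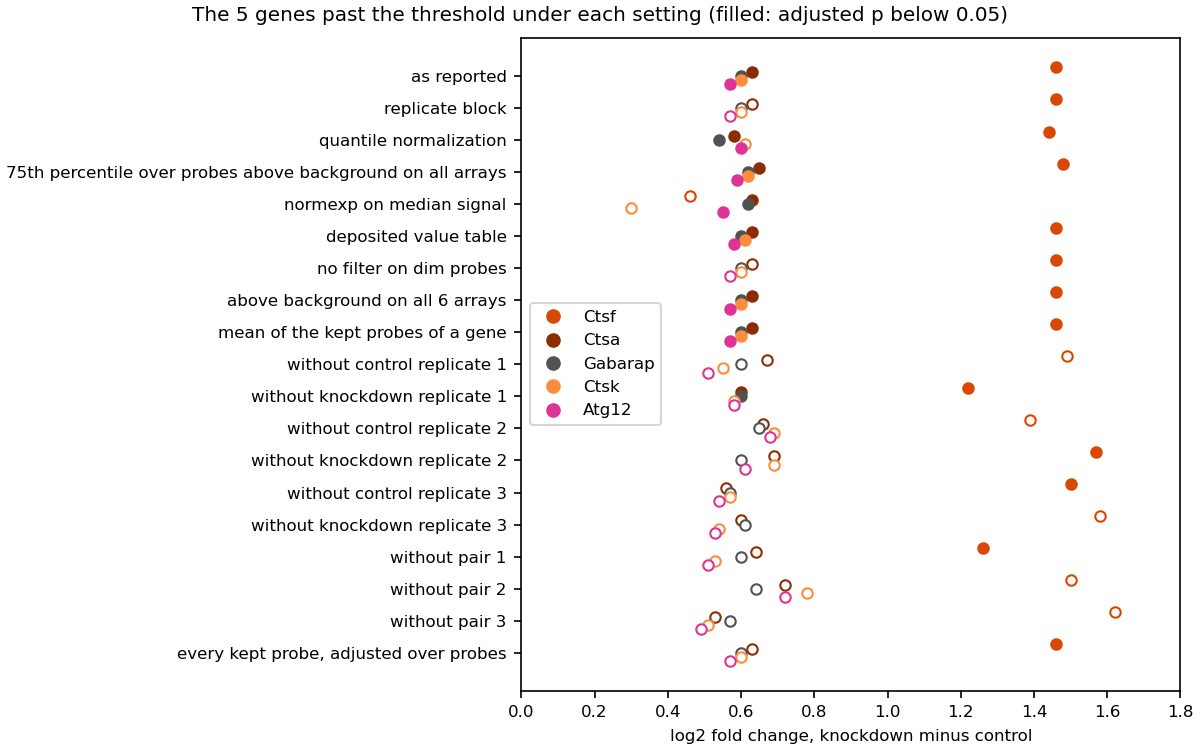
Log2 fold change (knockdown minus control) of the 5 members past the threshold, as reported and under 18 other settings; filled points have an adjusted p below 0.05. Every point lies above 0, and the low points of Ctsf (0.46) and Ctsk (0.30) are those with normexp.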

How the data were processed

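Total RNA was labelled with Cy3 and hybridised to 1-colour Agilent arrays. The deposited scanner files hold spot intensity values, background-subtracted by the scanner software (Agilent Feature Extraction 11.0.1.1) per the file headers, which show 1 slide and 1 scan, and the position on the slide was not tested. The deposited value table holds log2 values. Set against log2 of the processed signals, each column was offset by a constant (9.05 to 9.75), within 0.01 for 100% of probes, so it is scaled per array to the 75th percentile and not centred by gene; its column medians were -4.22, -4.41, -4.38, -4.35, -4.47 and -4.26 in the order of the samples.

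Control spots and outlier spots were left out (12 probes had no other spot on some array), spots of a probe were averaged, and the array's 75th percentile of log2 signal was subtracted. Accessions matched to RefSeq (GRCm38) named 32994 probes (58.3%). A probe was kept, 31804 in all, if 3 or more of the 6 arrays showed it well above background, and the brightest probe stood for each of 14151 genes. limma 3.58.1 (R 4.3.3; lmFit, eBayes, two-sided, Benjamini-Hochberg over all genes, no block) gave the tests, and was tested on simulated data. Python 3.11.15, pandas 2.3.3 and matplotlib 3.10.9 did the rest.

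The pairs come from the dates shared in the titles, which mark a shared day. Deviations of paired arrays from their group means correlated at -0.03, 0.55 and -0.20 over genes. The members and lists were chosen with earlier results of these data known. All 54 tested members are named or counted: those past the threshold, then those with an unadjusted p below 0.05, then the extremes of each role, with probes that disagree. From the related lists, genes past the threshold are named, except 1 that is not reported here. Alternatives were the block, other normalizations, background, filter and probe rules, and left-out arrays or pairs.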

Additional observations from a re-analysis of the deposited data

How the results depend on the processing

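The median log2 fold change of the 54 members stayed above 0 under all 18 alternatives. It ran from 0.156 to 0.233 with single arrays left out and from 0.158 to 0.255 otherwise. The block, the deposited value table and the fit of every probe reuse the same signals, and gave 0.202 again. The count of members whose knockdown arrays all lay higher was 26 as reported and 25 with quantile normalization. It ran from 26 to 30 with single arrays left out and reached 34 without pair 3. Fewer arrays separate more easily, and the share of all genes at those settings is not given here. The count of members past the threshold did not hold. In place of 5 higher it was 1 with the replicate block, without a filter on dim probes, with every probe fitted and without pair 1, 0 without pair 2 or without pair 3, and 0 to 3 with single arrays left out. It was 7 with the 75th percentile over probes detected on every array. The calls over all genes, in either direction, moved too. They numbered 1048 as reported, 558 with the block, 357 of 22907 without the filter and 1136 with that percentile. Without pair 1 they were 343, without pair 2 they were 81, and with single arrays left out they ran from 14 to 840. With every probe fitted, 1.16% of probes were called higher. Leaving out arrays lowers the number of samples, and 0 of all genes passed without pair 3, where Ggct had -2.96 (limma adjusted p = 0.126). Members lower past the threshold numbered 0 to 1 with single arrays left out. Members whose knockdown arrays all lay lower were 11 without pair 1 and 7 without pair 3, in place of 4, and 5 to 8 with single arrays left out. With fewer arrays the groups separate more easily, so these counts are not comparable with the 4 from all arrays. Of the 54 members, 10 changed sign in at least 1 alternative, none of them with a reported value beyond 0.21 from 0. Without pair 1, Atg2a was -0.22, Becn1 -0.11, Atg4a -0.02, Atg4b 0.06, Atp6v0a1 -0.04, Atp6v1b2 -0.1 and Ctsw 0.01. Without pair 2, Atg2a was -0.01, Atg13 0.03, Atg4b 0.07 and Ctsw 0.04, and without pair 3 Atg2b was 0.12 and Atg5 0.02. With the mean of a gene's probes, Atg4b was 0.09 and Atp6v1b2 -0.03. With single arrays left out, Atg2a ran from -0.17 to 0.23, Becn1 from -0.01 to 0.36, Atg13 from -0.07 to 0.00, Atg4b from -0.12 to 0.09, Atp6v0a1 from -0.03 to 0.2, Atp6v1b2 from -0.05 to 0.08 and Ctsw from -0.21 to 0.11. With the block, 0 hydrolase, 0 V-ATPase accessory, 0 sorting and 1 receptor gene passed. With single arrays left out, 0 to 1 hydrolase, membrane and accessory genes, 0 to 2 sorting genes and 0 to 3 receptor, core autophagy and mTORC1 genes did. The cause of these changes was not tested beyond the smaller number of samples. The planned normexp used the median spot signal, chosen after seeing the data, because the files hold no mean signal. Near background, as for Ctsf and Atp6v0a4, the signal limits what the arrays can show.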

Other observations

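Of the transcription factors that bind the CLEAR element, the 3 measured ones did not pass and did not share a direction. Mitf had a log2 fold change of 0.57 ± 0.19 (standard error; adjusted p = 0.115 in limma). All its knockdown arrays lay above all control arrays, beside 17.8% of all genes. Tfeb was at 0.20 (limma adjusted p = 0.393). Tfe3 was at -0.24 (limma adjusted p = 0.301), with all knockdown arrays below all control arrays, beside 14.6% of all genes. These 3 genes were picked after their values were seen. Tfec, from the same list around mTORC1 and TFEB, was above background on 0 arrays.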
